A study of Mus musculus with 18 samples.

Results

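The malate-aspartate shuttle is encoded by 7 genes of the deposited count table, chosen by symbol from the 57180 genes listed. They are the aspartate transaminases Got1 and Got2, the malate dehydrogenases Mdh1 and Mdh2, and the carriers Slc25a11, Slc25a12 and Slc25a13. The rule uses the symbols and no measured value, though it was set with earlier results of these data known. All 7 passed the filter on low counts that left 14263 genes for testing. RNA was sequenced from L929 cells, an established line of wild-type mouse fibroblasts, in 6 groups with 3 biological replicates each. The Mock group received the solvent DMSO. The AOA group received 0.5 mM aminooxyacetic acid, and the AOA+Asp group received AOA together with 20 mM aspartate. A 1 h pretreatment with AOA is recorded for both, as for the groups with DNA and AOA. Their total time in AOA was not recorded here. The HT-DNA group received 0.5 μg/ml herring testis DNA, transfected with Lipofectamine for 6 h, which engages the cytosolic DNA sensor cGAS. The HT-DNA+AOA group was given AOA 1 h before the DNA, and the HT-DNA+AOA+Asp group had the DNA, AOA and aspartate. No group had aspartate alone, and whether the groups without DNA received the transfection reagent was not given in the sources used here.

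The shuttle moves reducing equivalents of cytosolic NADH into mitochondria, since NADH itself does not cross the inner membrane. In the cytosol, malate dehydrogenase uses NADH to reduce oxaloacetate to malate, malate enters the matrix in exchange for 2-oxoglutarate, and matrix malate dehydrogenase yields NADH there. Transaminases on both sides of the membrane convert oxaloacetate to aspartate and back, and aspartate leaves the matrix in exchange for glutamate, which makes the shuttle a source of cytosolic aspartate. AOA blocks enzymes that use pyridoxal phosphate, among them both aspartate transaminases. The comparisons ask whether the mRNAs of the shuttle change with the inhibitor, with added aspartate and with transfected DNA. Enzyme activity, protein and flux were not analysed here.

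The genes lie on different chromosomes, except for Mdh1 and Slc25a11, which share chromosome 11, and differ in size. In GENCODE vM21 (build GRCm38), Slc25a11 spans 3.28 kb, Mdh2 11.9 kb, Mdh1 15.6 kb, Got2 24.4 kb and Got1 24.9 kb, whereas Slc25a12 spans 96.7 kb and Slc25a13 176 kb. The 2 aspartate/glutamate carriers each have 18 exons, against 8 to 10 in the other genes. The build the authors counted on was not given in the sources used here, so these positions describe the genes and not the reads. The promoters of 4 members are shown because these are the genes whose mRNA moved furthest in either direction with AOA, Got1, Slc25a12 and Slc25a13, together with Mdh2, the other member with a searched motif. Each is the RefSeq window (GRCm38.p6) from 250 bases before to 50 bases after the annotated start, written 5′ to 3′ on the strand of the gene, and capitals mark the motif matches.
Got1 (chr19:43524556-43524855, minus strand): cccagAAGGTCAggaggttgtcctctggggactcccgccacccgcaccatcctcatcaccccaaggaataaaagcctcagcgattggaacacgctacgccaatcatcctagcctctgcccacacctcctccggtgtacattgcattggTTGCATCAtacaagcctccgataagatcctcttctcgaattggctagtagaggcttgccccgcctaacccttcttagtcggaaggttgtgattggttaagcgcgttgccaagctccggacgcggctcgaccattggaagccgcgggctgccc
Mdh2 (chr5:135778399-135778698, plus strand): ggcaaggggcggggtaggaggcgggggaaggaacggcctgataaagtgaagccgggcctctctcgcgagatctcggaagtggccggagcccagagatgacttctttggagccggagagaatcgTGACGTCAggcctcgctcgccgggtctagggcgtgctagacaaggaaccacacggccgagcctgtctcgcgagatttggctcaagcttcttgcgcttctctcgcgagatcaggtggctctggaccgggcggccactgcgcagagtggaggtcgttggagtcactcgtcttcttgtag
Slc25a12 (chr2:71367706-71368005, minus strand): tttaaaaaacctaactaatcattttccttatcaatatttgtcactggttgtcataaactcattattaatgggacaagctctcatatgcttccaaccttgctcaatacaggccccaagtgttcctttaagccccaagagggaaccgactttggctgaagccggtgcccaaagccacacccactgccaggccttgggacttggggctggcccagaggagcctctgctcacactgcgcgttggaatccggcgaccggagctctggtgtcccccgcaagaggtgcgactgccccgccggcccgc
Slc25a13 (chr6:6217124-6217423, minus strand): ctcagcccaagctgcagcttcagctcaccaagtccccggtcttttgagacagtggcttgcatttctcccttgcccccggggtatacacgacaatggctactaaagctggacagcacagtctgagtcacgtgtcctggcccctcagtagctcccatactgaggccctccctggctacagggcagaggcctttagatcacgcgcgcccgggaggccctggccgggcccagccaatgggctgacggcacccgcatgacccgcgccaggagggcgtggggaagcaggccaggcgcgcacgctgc
The letters searched on both strands were TGATGNAA, the core of the C/EBP-ATF response element, TGACGTCA, the cAMP response element, the palindromic motif of NRF1, and AAGGTCA, bound by estrogen-related receptors. These motifs do not overlap in the windows shown. The Got1 promoter holds the first, read on the opposite strand as TTGCATCA at position -102 from the start, and also AAGGTCA at -245. The Mdh2 promoter holds TGACGTCA at -127. The other 5 promoters hold none of the 4. Among 32544 promoters of the same length, 3.91% hold TGATGNAA, 4.71% AAGGTCA, 1.8% TGACGTCA and 0.974% the NRF1 motif. A match is a description of the letters and not evidence that a factor binds.

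The libraries held 17901546 to 24057284 counts, with a median of 20385793. Levels are given as CPM, the counts of a gene per 1000000 counts of the library total scaled by edgeR's TMM method, with the SD of 3 replicates. Of the fibroblast markers, vimentin, S100a4, Col1a1, Col1a2 and Pdgfrb were expressed at 56.7 CPM or more in every library, while Thy1 did not exceed 0.169 CPM. The fibroblast list summed to 6329 to 6891 CPM with HT-DNA, 4753 to 6426 CPM in HT-DNA+AOA and 5261 to 6159 CPM in the other groups. The leukocyte markers Ptprc, Cd3e and Adgre1 were at 0, and the summed level of that list, almost all of it Cd68, was 138 to 155 CPM in HT-DNA+AOA and 110 to 137 CPM in the other groups. Epithelial and endothelial markers each summed to under 1 CPM in every library. Mitochondrially encoded genes took 3.21% to 3.57% of counts in the groups with aspartate and 2.69% to 3.15% in the others. The part of these differences in the results was not tested. The 3 HT-DNA+AOA replicates were less alike than those of the other groups, and the third had the lowest TMM factor, 0.918. Changes of single shuttle genes and counts of shuttle genes called against these libraries are given with and without them where leaving one out changed a call. Counts in the lists of related genes also moved when one was left out, and only some of these are given by library. In bulk RNA, a change in level per cell and a change in the make-up of the culture cannot be told apart.

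Per kilobase of its principal transcript, Mdh2 was the most abundant shuttle mRNA and Slc25a12 the least. In Mock cells, the levels were 353 ± 9.54 CPM per kb for Mdh2, 133 ± 2.38 for Got2, 100 ± 5.55 for Mdh1 and 62.4 ± 1.48 for Got1. The carriers were lower, at 30.8 ± 1.33 CPM per kb for Slc25a11, 16.1 ± 0.432 for Slc25a13 and 7.56 ± 0.183 for Slc25a12. The mean levels kept this order in all 6 groups. In the HT-DNA+AOA group, Mdh1 (88.95 to 124 CPM per kb) and Got1 (88.3 to 102) overlapped between replicates and could not be ordered.

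**Figure D1:**
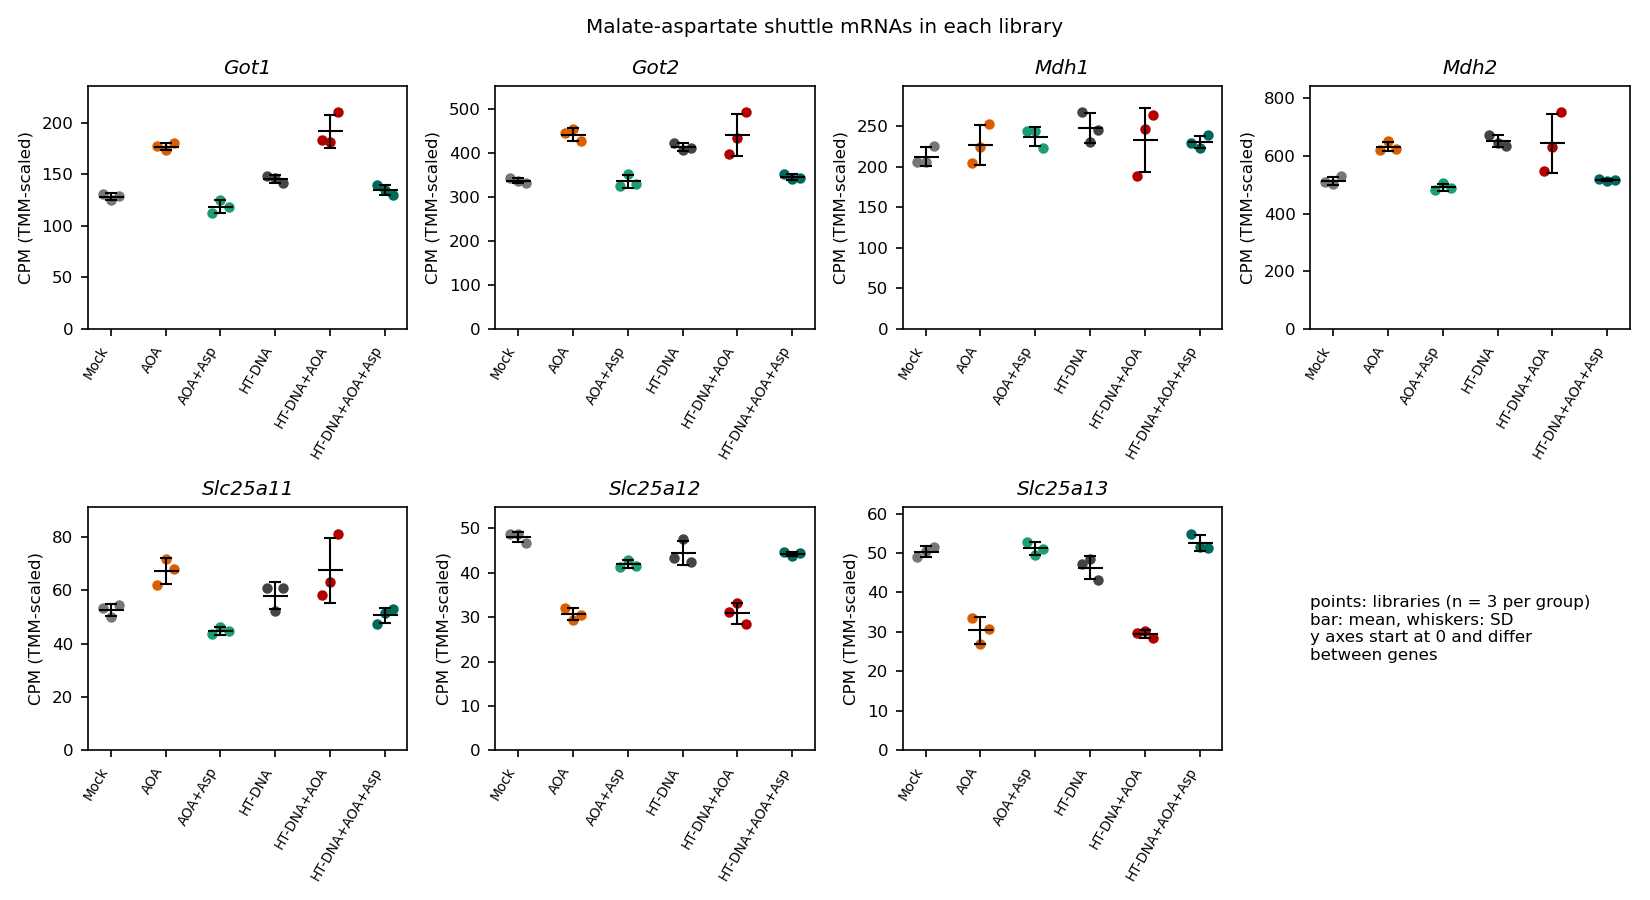
Level of each shuttle mRNA in CPM (y axis, from 0, scaled by TMM) in the 3 libraries of each of the 6 groups (x axis). Points are libraries, the horizontal bar is the mean and the whiskers are the SD. Got1 lies higher, and Slc25a12 and Slc25a13 lie lower, in both groups with AOA and no aspartate, while Mdh1 overlaps between all groups except Mock and HT-DNA.

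AOA alone moved the shuttle mRNAs in opposite directions. Both transaminases, Mdh2 and the oxoglutarate carrier Slc25a11 rose, and the aspartate/glutamate carriers Slc25a12 and Slc25a13 fell. Mdh1 did not pass the test. Of the 7 genes, 4 were called higher and 2 lower at an adjusted p under 0.05 in edgeR's quasi-likelihood test, where 45.7% of all tested genes were called (22.4% higher and 23.3% lower).

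Got1, the cytosolic aspartate transaminase, was at 131, 125 and 129 CPM in the Mock libraries and at 177, 174 and 180.0 CPM with AOA. All 3 AOA libraries were above all 3 Mock libraries. The increase was 1.38-fold (log2 fold change 0.46 ± 0.0649 SE, adjusted p = 1.36e-05, edgeR). Got2, the mitochondrial transaminase, was at 343, 336 and 331 CPM in Mock and 445, 453 and 426 CPM with AOA, again without overlap. It rose 1.31-fold (log2 0.39 ± 0.0682, adjusted p = 0.000131, edgeR). A share of 20.3% of the 31-base sequences of Got2 also occurs in its pseudogene Got2-ps1, to which 0 to 13 counts per library were assigned, and the Got2 values were not whole in all 18 libraries.

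Mdh2, the mitochondrial malate dehydrogenase, was at 509, 504 and 530.1 CPM in Mock and at 620.2, 652 and 625 CPM with AOA. The groups did not overlap, and the change was 1.23-fold (log2 0.30 ± 0.081, adjusted p = 0.00566, edgeR). Its cytosolic counterpart Mdh1 was at 206, 205 and 226 CPM in Mock and at 204, 225 and 252 CPM with AOA. These ranges overlapped, and the 95% interval of the log2 change, -0.12 to 0.31, includes changes as large as that of Mdh2. Mdh1 overlaps Wdpcp on the opposite strand, which had group means of 3.61 to 5.47 CPM, and whether counting used the strand was not given in the sources used here.

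The carriers split. Slc25a11, which exchanges malate for 2-oxoglutarate, was at 53.4, 50.2 and 54.5 CPM in Mock and at 62.1, 71.8 and 67.9 CPM with AOA, a rise of 1.28-fold (log2 0.35 ± 0.101, adjusted p = 0.00793, edgeR). It overlaps Rnf167 on the opposite strand, and its values were not whole in 16 of 18 libraries. Rnf167 went the other way in this comparison (log2 -0.32 ± 0.111, adjusted p = 0.0245, edgeR). It also rose where Slc25a11 fell, with aspartate on AOA (log2 0.38 ± 0.111, adjusted p = 0.00939, edgeR). The same held with aspartate on DNA and AOA (log2 0.51 ± 0.12, adjusted p = 0.00203, edgeR). Whether reads shared by these 2 genes had a part in any Slc25a11 call was not tested.

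Slc25a12 and Slc25a13 (aralar and citrin) are the 2 isoforms of the calcium-regulated carrier that exports aspartate from the matrix in exchange for glutamate. Slc25a12 was at 48.8, 48.6 and 46.7 CPM in Mock and at 32.1, 29.4 and 30.5 CPM with AOA. Slc25a13 was at 48.9, 50.6 and 51.6 CPM in Mock and at 33.6, 26.8 and 30.9 CPM with AOA. For both, every AOA library was below every Mock library. The levels with AOA were 0.638 times the Mock level for Slc25a12 (log2 -0.65 ± 0.0703, adjusted p = 6.18e-07, edgeR) and 0.604 times for Slc25a13 (log2 -0.73 ± 0.0787, adjusted p = 6.01e-07, edgeR). These were the largest changes among the 7 genes, and 9.24% of all tested genes had a log2 fold change at or below that of Slc25a13. Between Mock and AOA, 6 of the 7 genes did not overlap between replicates, as did 59.4% of all genes. With library totals in place of TMM, which moved the median of all genes to -0.116, Mdh2 (0.17) and Slc25a11 (0.22) no longer passed the test, while the other 4 calls remained.

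Aspartate added to AOA lowered the 4 genes that AOA had raised and raised the 2 that it had lowered. The comparison of AOA+Asp with AOA shares its AOA libraries with the comparison above, so their opposite signs are not independent. Got1 was at 112, 125 and 118 CPM with AOA+Asp, below all 3 AOA libraries (log2 -0.58 ± 0.0651, adjusted p = 1.17e-06, edgeR). Got2 fell by 0.40 on the log2 scale, Mdh2 by 0.36 and Slc25a11 by 0.59, to 324 to 351, 482 to 504 and 43.5 to 46.3 CPM. Slc25a12 rose to 41.2, 42.9 and 41.5 CPM (log2 0.45 ± 0.0705, adjusted p = 4.74e-05, edgeR). Slc25a13 rose to 52.9, 49.5 and 51.1 CPM (log2 0.75 ± 0.0787, adjusted p = 5.06e-07, edgeR). In this comparison 6 of 7 genes were called, 2 higher and 4 lower, and 46.3% of all genes were called (23.5% higher and 22.8% lower). The same count of 6 did not overlap between replicates, as did 56.8% of all genes. Mdh1 was again the exception (log2 0.063, 95% interval -0.15 to 0.28).

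Between AOA+Asp and Mock, 0 of the 7 genes were called by edgeR, against 6.47% of all genes. At an unadjusted p under 0.05 there were 2, and DESeq2 called 1. The 2 were Slc25a12, at 41.9 ± 0.882 CPM with AOA+Asp and 48.0 ± 1.16 CPM in Mock (log2 -0.20 ± 0.069, adjusted p = 0.0949, edgeR), and Slc25a11, at 44.9 ± 1.40 and 52.7 ± 2.27 CPM (log2 -0.23 ± 0.102, adjusted p = 0.194, edgeR). Both were lower than Mock in every library, and so was Got1 (log2 -0.12, 95% interval -0.25 to 0.02), while 32.7% of all genes did not overlap. For Slc25a13 the means were 51.2 ± 1.70 and 50.4 ± 1.35 CPM, and the interval of the log2 difference ran from -0.14 to 0.18.

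**Figure D2:**
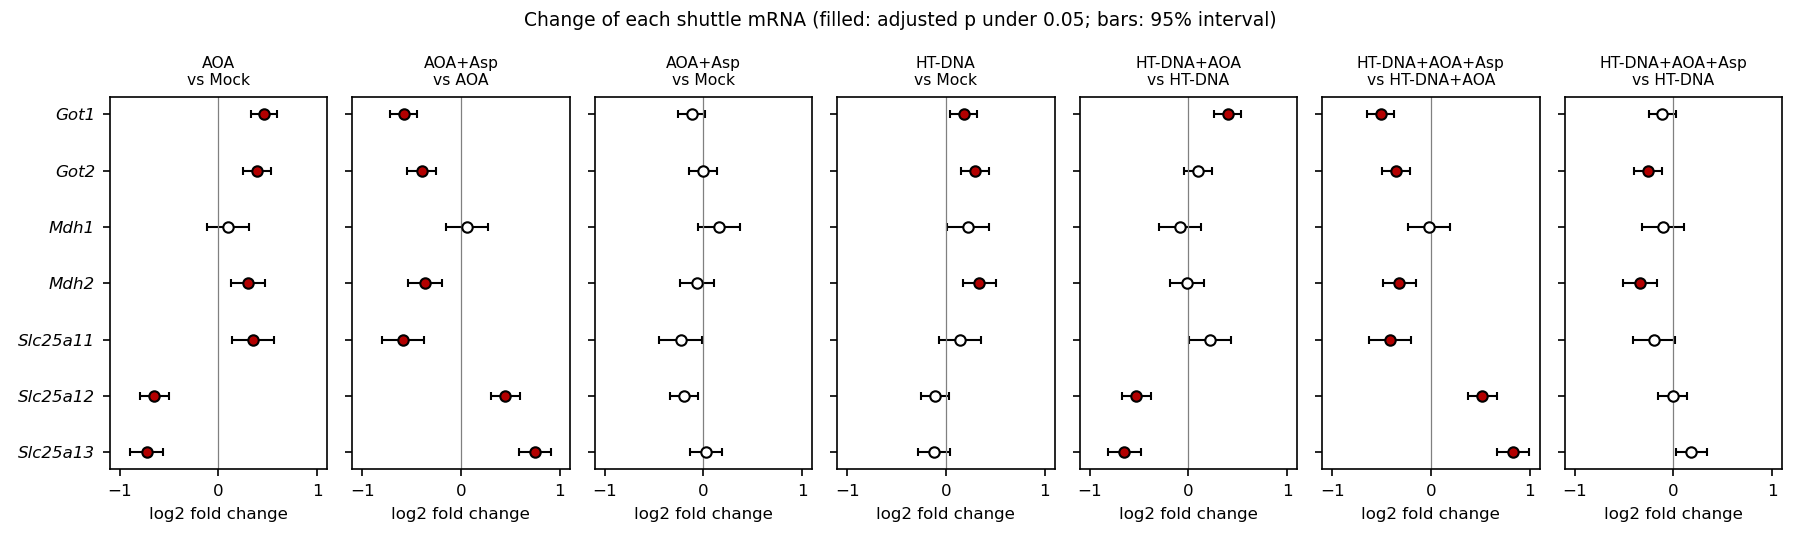
log2 fold change of each shuttle mRNA (x axis) by gene (y axis) in 7 comparisons from the edgeR fit of all 18 libraries. Points are estimates, bars are 95% intervals, and filled points have an adjusted p under 0.05. With AOA against Mock, 4 filled points lie above 0 and 2 below, Mdh1 is open in every panel, and the AOA+Asp against Mock panel has no filled point.

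With transfected DNA alone, both transaminases and Mdh2 rose. Against Mock, 3 of 7 genes were called higher and none lower, where 48.2% of all genes were called (24.2% higher and 24% lower). The 3 of 7 called in either direction lie near that 48.2%. Of all genes, 64.7%, 73.6% and 77.2% had a lower log2 fold change than Got1, Got2 and Mdh2. Mdh2 was at 673, 645 and 634 CPM (log2 0.34 ± 0.081, adjusted p = 0.00239, edgeR), Got2 at 423, 405 and 410.1 CPM (log2 0.29 ± 0.0682, adjusted p = 0.00195, edgeR) and Got1 at 149, 147 and 141 CPM (log2 0.18 ± 0.0649, adjusted p = 0.0281, edgeR). All 3 were above the Mock libraries without overlap, and 61.3% of all genes did not overlap in either direction. Mdh1, at 231 to 267 CPM, was also above all Mock libraries but did not pass the test (log2 0.22 ± 0.101, adjusted p = 0.0785, edgeR). It was called with no filter on low counts (adjusted p = 0.0358) and with only the Mock and HT-DNA libraries fitted (adjusted p = 0.00884). Slc25a12 (log2 -0.11, 95% interval -0.26 to 0.03) and Slc25a13 (log2 -0.12, 95% interval -0.28 to 0.04) did not pass either. A fall of the size seen with AOA lies outside their intervals. Slc25a13, at 43.1 to 48.6 CPM, was still below all Mock libraries, which makes 5 of 7 genes without overlap.

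These DNA responses depended on the processing. The Got1 call was lost in 5 of 6 fits that left out 1 library (adjusted p = 0.0518 to 0.0984, edgeR). These were the fits without any 1 Mock library or without HT-DNA replicate 1 or 2. It was also lost with no filter on low counts (log2 0.19, adjusted p = 0.121, edgeR) and with library totals (log2 0.070, adjusted p = 0.325, edgeR). After removal of each library's trend on GC content and transcript length, Got1 was at -0.028 and Got2 at 0.053 on the log2 scale and neither passed, Mdh2 (0.15) still did, and Slc25a12 (0.29) was called higher and Slc25a11 (-0.17) lower. With gene span also removed, none of the 3 calls remained (Mdh2 0.088, adjusted p = 0.0900, edgeR), and the 1 call was Slc25a12, higher (0.32, adjusted p = 0.00173, edgeR). Library totals in place of TMM called Slc25a12 (-0.22) and Slc25a13 (-0.23) lower, with the median of all genes at -0.118. The direction of Slc25a12 with DNA therefore differed between scalings.

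AOA on top of DNA raised Got1 and lowered Slc25a12 and Slc25a13. Of the 7 genes, 3 were called against HT-DNA, with 45.4% of all genes (22.8% higher and 22.7% lower). The 3 of 7 lie near that 45.4%. Got1 was at 183, 182 and 210.4 CPM, above all HT-DNA libraries (log2 0.40 ± 0.0649, adjusted p = 5.53e-05, edgeR). Slc25a12 was at 31.1, 33.1 and 28.4 CPM (log2 -0.53 ± 0.0707, adjusted p = 5.98e-06, edgeR) and Slc25a13 at 29.8, 30.2 and 28.4 CPM (log2 -0.65 ± 0.0793, adjusted p = 1.91e-06, edgeR), both below all HT-DNA libraries, which held 42.5 to 47.6 and 43.1 to 48.6 CPM.

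The other 4 genes overlapped with HT-DNA, while 44.8% of all genes did not. Got2 was at 397, 433 and 492 CPM with HT-DNA+AOA, Mdh2 at 548, 631 and 752 CPM and Slc25a11 at 58.1, 63.0 and 81.3 CPM. The third replicate was highest for each, and the spread was larger than in the other groups. The SD was 103 CPM for Mdh2, against 4.19 to 19.9 CPM elsewhere. It was 48.0 CPM for Got2, against 5.93 to 14.4 CPM, and 12.2 CPM for Slc25a11, against 1.4 to 4.96 CPM. Without HT-DNA+AOA replicate 1, Got2 (log2 0.16, adjusted p = 0.0422, edgeR) and Slc25a11 (log2 0.31, adjusted p = 0.00929, edgeR) were also called, for 5 of 7 genes. Without replicate 3, the values were 0.0079 for Got2 and 0.062 for Slc25a11, and neither was called. The calls of Got1, Slc25a12 and Slc25a13 remained without any single library, with log2 changes of 0.32, -0.47 and -0.62 without replicate 3.

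Whether AOA acted differently with DNA was tested with an interaction term, which called 1 of 7 genes, Got2, and 15.5% of all genes. The Got2 rise with AOA was smaller with DNA than without it, by 0.30 ± 0.0964 on the log2 scale (adjusted p = 0.045, edgeR). The estimate for Mdh2 was -0.31 ± 0.114 (adjusted p = 0.0681, edgeR). The Got2 call was lost without any one of 11 of the 12 libraries, with adjusted p = 0.0519 to 0.102. Without HT-DNA+AOA replicate 3, Got2 (-0.38), Mdh2 (-0.44) and Slc25a11 (-0.29) were all called. With GC content and length corrected, the gene called was Mdh2 (-0.20, adjusted p = 0.0306, edgeR) and not Got2 (-0.11, adjusted p = 0.163, edgeR). The interaction intervals of Slc25a12 (-0.09 to 0.33) and Slc25a13 (-0.15 to 0.31) exclude a difference as large as their fall with AOA alone. In the direct comparison of HT-DNA+AOA with AOA, 0 of 7 genes were called by edgeR, 0 had an unadjusted p under 0.05 and 0 were called by DESeq2, where edgeR called 13.4% of all genes. The edgeR count was also 0 without any 1 library.

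Aspartate given with DNA and AOA moved 6 of 7 genes, where 47.7% of all genes were called (23.7% higher and 23.9% lower). Against HT-DNA+AOA, Slc25a13 rose 1.78-fold to 54.9, 51.5 and 51.2 CPM (log2 0.83 ± 0.0791, adjusted p = 1.21e-07, edgeR). Slc25a12 rose 1.43-fold to 44.6, 43.8 and 44.4 CPM (log2 0.52 ± 0.0707, adjusted p = 9.06e-06, edgeR). Got1 was at 139, 134 and 130.2 CPM, 0.702 times the level without aspartate (log2 -0.51 ± 0.065, adjusted p = 4.41e-06, edgeR). These 3 were among the 6 of 7 genes that did not overlap between the groups, where 48.8% of all genes did not. Got2 fell by 0.35, Mdh2 by 0.32 and Slc25a11 by 0.41 on the log2 scale, and all 3 kept their calls without HT-DNA+AOA replicate 3, at -0.27, -0.19 and -0.26. With only the libraries compared, Mdh2 lost its call (-0.32, adjusted p = 0.0688, edgeR). Mdh1 was at 223 to 239 CPM and did not pass (log2 -0.016, 95% interval -0.23 to 0.20).

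The effect of aspartate was not shown to differ with DNA. The interaction term called 0 of 7 genes and 1.05% of all genes in edgeR, with 0 genes at an unadjusted p under 0.05 and 0 by DESeq2. Its estimate was 0.081 for Slc25a13 (95% interval -0.15 to 0.31) and 0.070 for Got1 (95% interval -0.12 to 0.26). Without HT-DNA+AOA replicate 3 these were 0.057 and 0.14, and no shuttle gene was called without any 1 library. Between HT-DNA+AOA+Asp and AOA+Asp, 0 of 7 genes were called by edgeR or DESeq2 and 3.45% of all genes were called by edgeR. Got1, the 1 gene with an unadjusted p under 0.05, was at 135 ± 4.59 and 118 ± 6.25 CPM (log2 0.19 ± 0.0651, adjusted p = 0.145, edgeR).

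Relative to DNA alone, cells with DNA, AOA and aspartate had lower Mdh2 (515 ± 4.19 against 651 ± 19.9 CPM, log2 -0.34 ± 0.081, adjusted p = 0.00283, edgeR) and Got2 (345 ± 5.93 against 413 ± 8.91 CPM, log2 -0.26 ± 0.0682, adjusted p = 0.00507, edgeR). These were the 2 calls among 7 genes, with 46.6% of all genes called (23.2% higher and 23.5% lower). Mdh2 and Got2 were at 1.05 and 1.03 times their AOA+Asp level, a difference that did not pass the test. Slc25a13 was at 52.5 ± 2.07 CPM against 46.3 ± 2.88 CPM, above all HT-DNA libraries, with an adjusted p of 0.0583 (edgeR) and log2 0.18 ± 0.077. It passed with DESeq2 (adjusted p = 0.0357), with a minimum of 10 counts per library (adjusted p = 0.0394, edgeR) with library totals (adjusted p = 0.0224, edgeR) and with only the libraries compared (adjusted p = 0.0216, edgeR), which also called Slc25a11 lower (-0.19). The interval of Slc25a12 was -0.15 to 0.14. With GC content and length corrected, Slc25a12 was called lower (log2 -0.37, adjusted p = 0.000552, edgeR), and Got2 turned to 0.015 and lost its call.

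Counts set against each other within 1 library need no scaling between libraries. The summed counts of Slc25a12 and Slc25a13 per 100 counts of Got1 and Got2 were 20.6 to 21.5 in Mock, 8.97 to 10.6 with AOA and 19.4 to 21.6 with AOA+Asp. With DNA they were 15.5 to 17.4, with HT-DNA+AOA 8.09 to 10.5 and with HT-DNA+AOA+Asp 20.05 to 20.3. Both groups with AOA and no aspartate lay below every other library, and HT-DNA lay between them and the rest. The ratio of Slc25a13 to Slc25a12 was 0.991 ± 0.0692 with AOA and 0.959 ± 0.0438 with HT-DNA+AOA, against 1.05 ± 0.0516 in Mock and 1.04 ± 0.0408 with HT-DNA. It was 1.22 ± 0.0647 with AOA+Asp and 1.19 ± 0.0392 with HT-DNA+AOA+Asp. The 6 libraries with aspartate held 1.155 or more, and no library without aspartate exceeded 1.105. No test was run on these ratios.

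**Figure D3:**
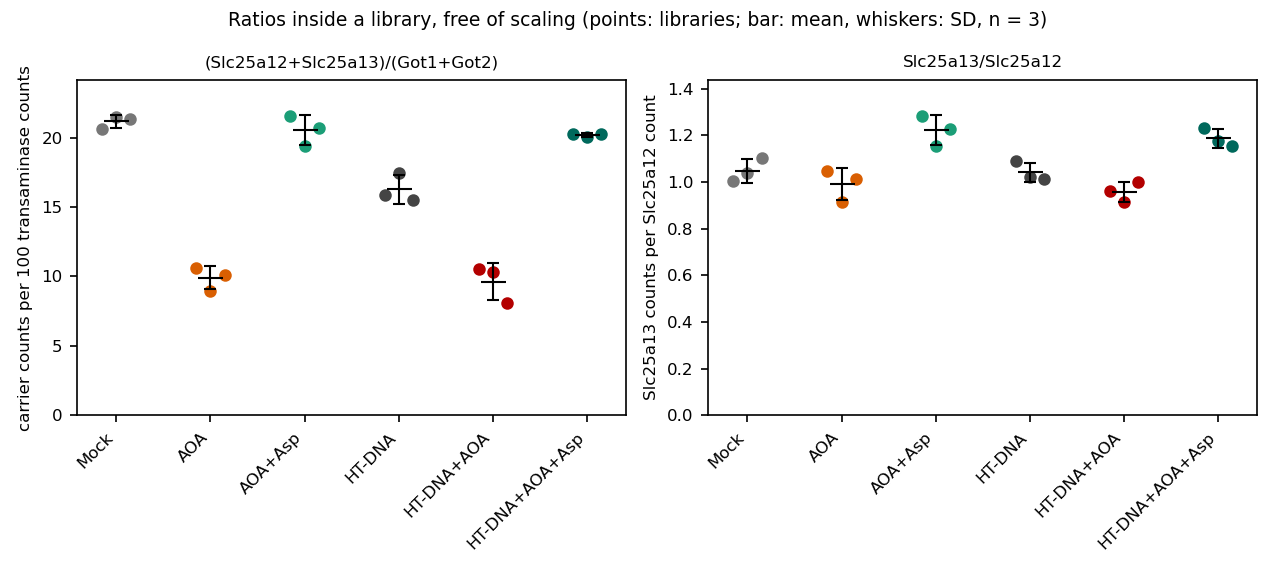
Left, counts of Slc25a12 and Slc25a13 per 100 counts of Got1 and Got2; right, counts of Slc25a13 per count of Slc25a12, in each of the 6 groups (x axis). Points are libraries, bars are means and whiskers SD (n = 3). On the left, the groups with AOA and no aspartate lie at 8.09 to 10.6 and the others at 15.5 or more. On the right, the groups with aspartate lie highest.

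Over the 18 libraries, Slc25a12 and Slc25a13 varied together (Pearson r of log2 CPM 0.943), as did Got1 with Got2 (0.912) and Got2 with Mdh2 (0.950). Got1 ran opposite to Slc25a13 (r = -0.915). Mdh1 followed none of the other 6 closely, with r from -0.089 to 0.445. Without the 3 HT-DNA+AOA libraries, the r of these 4 named pairs were 0.916, 0.912, 0.946 and -0.863, and those of Mdh1 ran from -0.096 to 0.317. These values describe 18 libraries in 6 treatment groups that share their scaling, and are given without a p-value. For every member, the 3 closest genes lay outside the shuttle, so an r of this size is not particular to it. Among 8807 genes averaging 10 CPM or more, the closest to Got1 were Cox18, Nfkb2 and Adgra2 (r = 0.983 to 0.984), and to Got2 they were Pofut2, Ruvbl2 and Ap1m1 (0.983 to 0.985). For Mdh2 they were Rpl8, Fkbp1a and Ptges2 (0.981 to 0.984), and for Slc25a11 Ints11, Fads3 and Psph (0.947 to 0.951). Slc25a12 was closest to Rab31, Ldb3 and Zfand5 (0.966 to 0.969) and Slc25a13 to Srrt, Zfp207 and Mtrex (0.967 to 0.971). The closest genes to Mdh1 were S100a4, Calm2 and Mrps18c, at 0.894 to 0.940.

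The 2 genes that fell with AOA are also the longest of the 7, and changes ran with gene span across the genome. Among all tested genes, the median log2 change with AOA was 0.13 for spans under 10 kb and -0.14 for spans over 90 kb (Spearman -0.187 over 13909 genes, which are not independent replicates). Slc25a12 (-0.65) and Slc25a13 (-0.73) lay below that median, and 13.9% and 11.5% of the 1645 genes over 90 kb had values at or below theirs. With HT-DNA the trend was steeper, with medians of 0.18 and -0.33, and both carriers lay above the median of the long genes. With AOA added to DNA the trend was near 0 (Spearman -0.0184, median 0.041 over 90 kb), and Slc25a12 and Slc25a13 changed by -0.53 and -0.65. With aspartate added to DNA and AOA, the median was 0.23 over 90 kb and 0.52 and 0.83 for the carriers. The 2 carriers stand apart from the other members in span and exon number together. The part of either in these changes was not tested.

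**Figure D4:**
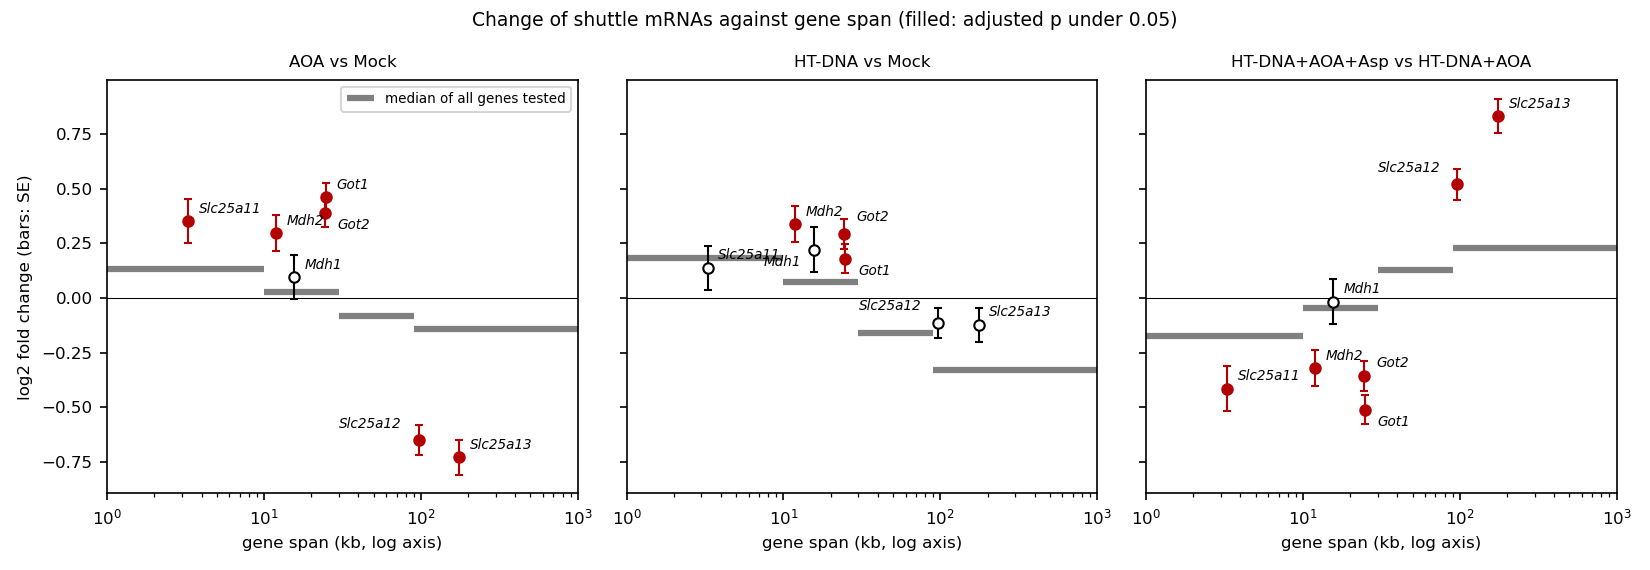
log2 fold change of the shuttle mRNAs (y axis, bars are SE) against gene span in kb (x axis, log scale) in 3 comparisons. Grey bars are the medians of all tested genes under 10, 10 to 30, 30 to 90 and over 90 kb, and filled points have an adjusted p under 0.05. Slc25a12 and Slc25a13 lie farther from 0 than the grey bar with AOA and with aspartate, and above it with HT-DNA.

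Transcripts of Slc25a12, Slc25a13 and Mdh1 hold 46.6%, 47.0% and 45.7% G and C bases, against 50.9% to 54.5% in the other 4. After removal of each library's trend on GC content, transcript length and gene span, the 6 calls with AOA remained, at log2 0.34 for Got1, 0.36 for Got2, 0.15 for Mdh2, 0.21 for Slc25a11, -0.48 for Slc25a12 and -0.71 for Slc25a13. The estimate of Mdh2 was thus the one most reduced relative to its size. For AOA added to DNA, the same correction added Got2 (0.26) and Slc25a11 (0.27) to the calls, for 5 of 7 genes.

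**Figure D5:**
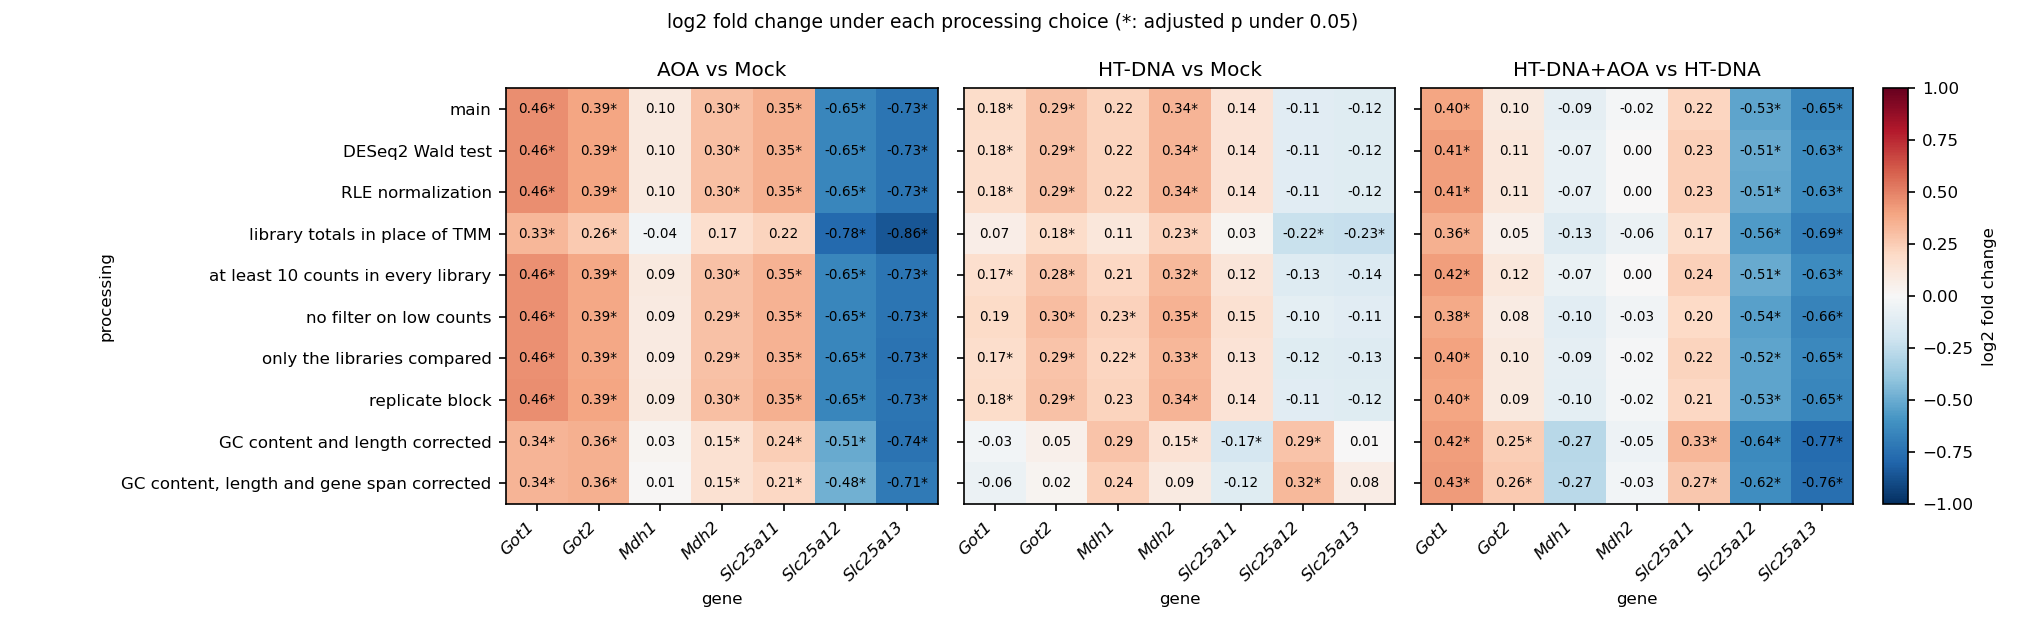
log2 fold change of the 7 genes (columns) under each processing choice (rows) in 3 comparisons. Colour and number give the log2 fold change, and a star marks an adjusted p under 0.05. With AOA, Got1, Got2, Slc25a12 and Slc25a13 are called in every row, while with HT-DNA no gene is.

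Related genes of the same metabolism were counted in 4 lists, to be read against the shares of all genes called in the same fit. These were 22.4% higher and 23.3% lower with AOA, 23.5% and 22.8% with aspartate on AOA, 24.2% and 24% with DNA alone, 22.8% and 22.7% with AOA on DNA, and 23.7% and 23.9% with aspartate on DNA and AOA. The first list held subunits of the citric acid cycle enzymes. With AOA, 11 of 16 were higher and 1 lower (median log2 0.30, against 0.015 for all genes), and with library totals 6 were higher and 2 lower. Dlst, a subunit of the 2-oxoglutarate dehydrogenase complex (log2 0.46), and Suclg1, a subunit of succinyl-CoA ligase (0.43), rose most, and Sdhd, a membrane anchor of succinate dehydrogenase, fell (-0.30). Aspartate on AOA lowered 9 and raised 3 of the 16 (median -0.23). With DNA alone, 5 were higher and 2 lower, among them Sdhb (0.45) and Sdha (-0.43), subunits of the same complex. AOA on DNA raised 6, led by Sdha (0.72) and Suclg2 (0.47), and lowered Sdhd (-0.49). The 7 of 16 called in either direction with DNA alone and with AOA on DNA lie near the 48.2% and 45.4% of all genes. Aspartate with DNA and AOA lowered 11 and raised 2, Idh3a (0.30) and Sucla2 (0.25), but with only the libraries compared 3 were lower and 1 higher. Without HT-DNA+AOA replicate 2, 7 were lower and 2 higher.

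The glycerol phosphate shuttle, the other route for cytosolic NADH, and lactate and pyruvate transport formed a list of 9 genes. With AOA, 4 rose, led by the monocarboxylate transporter Slc16a1 (log2 0.70), and 2 fell, Gpd1l (-0.61) and the cytosolic glycerol-3-phosphate dehydrogenase Gpd1 (-0.32). With library totals 2 were higher and 2 lower. Aspartate on AOA lowered 4, among them Slc16a1 (-0.65) and the pyruvate carrier subunit Mpc1 (-0.35), and raised Gpd1l (0.70). DNA alone raised 5 and lowered none, led by lactate dehydrogenase Ldha (0.59) and Gpd1 (0.56), against 4 and 1 with library totals. On DNA, AOA lowered Gpd1 (-0.81) and Gpd1l (-0.59) and raised Slc16a1 (0.50), for 1 higher and 2 lower, which became 3 and 2 without HT-DNA+AOA replicate 1 and 2 and 3 without replicate 3. Aspartate then raised 2, Gpd1l (0.82) and Gpd1 (0.25), and lowered 4.

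Of 15 other enzymes that make or use aspartate, malate, oxaloacetate or 2-oxoglutarate, 12 passed the filter. With AOA, 3 rose, among them glutamate dehydrogenase Glud1 (log2 0.40) and mitochondrial phosphoenolpyruvate carboxykinase Pck2 (0.40), and 4 fell, among them cytosolic isocitrate dehydrogenase Idh1 (-0.84). Aspartate on AOA raised 4 and lowered 3, with Pck2 (-0.44) falling most. DNA alone raised 2 and lowered 3, but only 2 to 3 in all were called without any 1 of the Mock or HT-DNA libraries. With library totals 1 was higher and 6 lower. Aspa, 1 of the 2 that rose, was at only 0.889 ± 0.468 CPM with DNA and 0.339 ± 0.148 CPM in Mock. AOA on DNA also raised 2, with Pck2 at 0.43, and lowered 3. The 5 of 12 genes called in each of these comparisons lie near the 48.2% and 45.4% of all genes. Aspartate with DNA and AOA raised 4 and lowered Pck2 (-0.32).

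The last list held other mitochondrial metabolite carriers. Of 17 tested among 19, AOA raised 4 and lowered 2, with a median log2 of 0.10, a smaller share than the 45.7% of all genes, and 8 and 3 with GC content and length corrected. The pyrimidine nucleotide carrier Slc25a33 rose most (log2 1.13), followed by Slc25a39 (0.48), and the dicarboxylate carrier Slc25a10 fell (-0.31). Aspartate on AOA lowered 7, led by Slc25a33 (-1.07), and raised 1. DNA alone raised 9 and lowered 2, led by the glutamate carrier Slc25a22 (0.71), against 5 and 2 with library totals and 6 and 1 without HT-DNA replicate 3. AOA on DNA raised 2, Slc25a33 (0.72) and Slc25a36 (0.60), and lowered 5, among them Slc25a10 (-0.53), against 6 and 5 without HT-DNA+AOA replicate 1. Aspartate with DNA and AOA lowered 7, with Slc25a25 (-0.85) and Slc25a33 (-0.78) first, and raised 1. In either direction, 8 of 17 were called with aspartate on AOA, 7 with AOA on DNA and 8 with aspartate on DNA and AOA. These lie near the 46.3%, 45.4% and 47.7% of all genes. Each list value named here had an adjusted p under 0.05 in edgeR.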

How the data were processed

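Per the labels and the study's methods, TRIzol was used to extract RNA, and Majorbio sequenced it. The aligner, the counting program and the genome build were not given in the sources used here. The authors deposited estimated counts (expected counts) per gene without normalization for 57180 genes, of which 11.6% of values were not whole. They were rounded to whole numbers. Columns with the authors' group means differed from the mean of the 3 libraries by at most 3.3e-05 and were not used, nor were annotation columns.

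Groups came from the sample titles. One robust quasi-likelihood fit took all 18 libraries, with edgeR 4.0.16 in R 4.3.3, after filterByExpr (minimum count 10, minimum total 15) and TMM scaling. The 9 pairwise contrasts and 2 interactions were tested, and genes were called at a Benjamini-Hochberg adjusted p-value under 0.05 over 14263 genes. The scripts were tested on simulated data. All 7 shuttle genes are named in the comparisons, and of 4 lists, in 5 comparisons, genes among the 2 largest rises and 2 largest falls that were called. Some genes of the lists are counted and not reported here by name. For each shuttle gene, the 3 genes with the highest correlation are named. The members and lists were chosen with earlier results of these data known. Alternatives were DESeq2 1.42.0, RLE normalization, library totals, other filters, the fit of the compared groups alone, a replicate block, removal of each library in turn, a minimum log2 fold change of 1 and a correction for GC content and length (loess span 0.3), to which gene span was added after seeing the data. Intervals are 95% intervals of the fit.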

Additional observations from a re-analysis of the deposited data

Results flagged for a closer look

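Got2 was the 1 shuttle gene whose AOA effect differed with DNA by a test of the difference itself in the fit reported. The interaction was -0.296 on the log2 scale (adjusted p = 0.045, edgeR), with AOA raising Got2 by 0.39 without DNA and by 0.10 with it. Got2 was at 337 ± 6.01 CPM in Mock, 441 ± 13.8 with AOA, 413 ± 8.91 with HT-DNA and 441 ± 48.0 with HT-DNA+AOA. The call was lost under 7 of 9 alternatives other than the minimum fold change and the removal of a library, with adjusted p from 0.0207 (DESeq2) to 0.240 (correction for GC content, length and gene span). The estimate was -0.278 with RLE normalization, -0.297 with the replicate block and -0.308 both with no filter and with only the libraries compared, but -0.206 with library totals and -0.109 and -0.0977 under the GC corrections. Under these corrections Mdh2 was called in place of Got2 (-0.197 and -0.176). The cause was not tested.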

How the results depend on the processing

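With AOA against Mock, aspartate on AOA, and aspartate on DNA with AOA, 6 of 7 genes were called without any single library, and 0 under a minimum absolute log2 fold change of 1, since no member changed that much. That minimum also gave 0 in the other comparisons with calls: HT-DNA against Mock, HT-DNA+AOA against HT-DNA, HT-DNA+AOA+Asp against HT-DNA and the AOA interaction. The interaction gave 0 calls with library totals, RLE normalization, no filter, only the libraries compared and the replicate block, and 0 to 3 without a library (3 without HT-DNA+AOA replicate 3). AOA+Asp against Mock gave 1 call with DESeq2, library totals and both GC corrections, which was Slc25a12 each time, and 2 with only the libraries compared. With only those libraries, HT-DNA+AOA+Asp gave 1 call against AOA+Asp and 4 against HT-DNA. Against HT-DNA+AOA, Mdh2 lost its call under that setting (-0.32, adjusted p = 0.0688, edgeR). HT-DNA against Mock gave 2 to 3 calls without a library and 1 with gene span corrected, Slc25a12. HT-DNA+AOA against HT-DNA gave 3 to 5 without a library and 5 with either GC correction.

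Reversed with HT-DNA against Mock were Got1 (-0.028 corrected for GC content and length, -0.055 with span), Slc25a11 (-0.17 for GC content and length) and Slc25a12 (0.29 and 0.32). Got2 in HT-DNA+AOA+Asp against HT-DNA went to 0.015 and 0.038. Median r was 0.00811 between libraries with the same replicate number and 0.00831 with different numbers, with highest values of 0.278 and 0.252. Of 45 pairs with the same number, 7 had r over 0.1, and 9 of 18 libraries correlated best with their own number. These values do not settle whether the replicate numbers pair the libraries. List counts also moved. With GC content and length corrected, AOA on DNA gave 11 calls in the citric acid cycle (from 7), 5 in the lactate list (from 3) and 9 among other enzymes (from 5), and aspartate on DNA with AOA gave 8 among other enzymes (from 5). With only the libraries compared, aspartate on DNA with AOA gave 3 in the lactate list (from 6), 2 among other enzymes (from 5) and 5 among carriers (from 8). Without AOA+Asp replicate 3, aspartate on AOA gave 3 in the lactate list (from 5). With 1 library left out, aspartate on DNA with AOA gave 9 to 12 calls in the citric acid cycle (from 13). It gave 4 to 6 in the lactate list, 5 to 7 among other enzymes and 7 to 11 among carriers. For AOA on DNA these counts were 6 to 9, 3 to 5, 4 to 5 and 6 to 11. The block changed no other count of shuttle genes called.

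Replicates varied by 2.78 to 67 times the counting variance. The lowest member, Slc25a12, had at least 476 counts in each library. The cause of these dependences was not tested.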
